A study of Mus musculus with 6 samples.

Results

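The lysosomal antigen-processing enzymes examined here were 7 cathepsins (Ctsb, Ctsc, Ctsd, Ctsh, Ctsl, Ctss and Ctsz), the asparaginyl endopeptidase Lgmn, the thiol reductase Ifi30, and Cst3, which encodes the secreted protease inhibitor cystatin C. These 10 genes were taken by symbol from a table of 32285 features. All 10 were among the 12568 genes that passed the filter on low counts. RNA came from type 1 conventional dendritic cells (cDC1s), a subset known for cross-presenting antigen to CD8 T cells, which were isolated by FACS from digested mLN of C57BL/6 mice. House dust mite extract (HDM), 50 µg, had been given to every mouse through the nose 24 h earlier, so there was no unexposed group. One group of 3 libraries was wild type (WT), and the other 3 carried a conditional Vps33b deletion with the genotype name Vps33BdeltaDC (KO). VPS33B is a protein of endosomal and lysosomal membrane trafficking, and the question was what its loss does to these cells. The labels name no Cre driver, deleted exons, sort markers or ages. Whether libraries of a group came from separate mice is not stated, so each p-value refers to the spread among libraries, and that spread could be technical.

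Antigen taken up by a dendritic cell is cut in endosomes and lysosomes by proteases that are made as inactive precursors and matured in those acidic compartments. Endopeptidases cut inside a protein chain and exopeptidases trim its ends, while a thiol reductase opens disulfide bonds so that folded antigen can be cut. Cathepsin S also removes the invariant chain from MHC class II. In cDC1s proteolysis is kept low, which preserves antigen for cross-presentation on MHC class I. Cystatin C inhibits cysteine cathepsins by binding their active site, and its transcript is a known marker of dendritic cells.

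Libraries held between 11755944 and 18450678 counts. Vps33b, the targeted gene, was counted at 16.2, 19.1 and 13.8 CPM (counts scaled to the TMM-adjusted library total) in WT and at 4.998, 7.01 and 8.29 CPM in KO. All KO values were below all WT values, with a two-sided exact permutation p of 0.1, the smallest that 3 against 3 libraries allow. All 10 cDC1 markers were detected in all 6 libraries, with sums of 2046 to 2394 CPM in WT and 1988 to 2493 CPM in KO. Irf8 made up most of these sums, and without it they were 717 to 961 CPM in WT and 744 to 862 CPM in KO. Of the 10 markers 7 had a fold change below 0, and 3 were lower in KO at an unadjusted p under 0.05, as were 3.06% of all genes tested. These were Xcr1 at a log2 fold change of -1.43, Wdfy4 at -0.89 and Clec9a at -0.38, each with an edgeR adjusted p of 0.834, and for Xcr1 and Wdfy4 the groups did not overlap, which held for 5.19% of all genes in that direction. The part of these markers' differences in the values below was not tested. Markers of macrophages and monocytes, cells rich in lysosomal proteases, were summed over 14 genes and reached 493, 238 and 287 CPM in WT and 247, 240 and 851 CPM in KO. KO replicate 3 was therefore the highest for that list and WT replicate 1 the second highest.

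All 10 genes had a positive fitted fold change, KO over WT, but none passed the test. The difference between group means exceeded the SD of the KO libraries in 5 of the 10 genes (Lgmn, Ctsz, Ctss, Ifi30 and Cst3) and was below it in the others. The share of all genes for which this held was not counted. The median log2 fold change of the 10 was 0.28, against 0.00 for all genes tested, of which 50.6% were above 0. No gene of the 12568 passed an adjusted p of 0.05 in edgeR's quasi-likelihood test, which is 0.0% called, and DESeq2 called 10, none of them among these 10. At an unadjusted p under 0.05 the edgeR test gave 725 genes, 341 with a higher level in KO (2.71% of all genes) and 384 with a lower one (3.06%). Of the 10 genes 1 was in that higher set, namely Lgmn. In 2 genes, Lgmn and Ctsz, every KO library was above every WT library, which held for 5.46% of all genes. In none of the 10 was every KO library below every WT library, as was so for 5.19% of all genes.

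**Figure D1:**
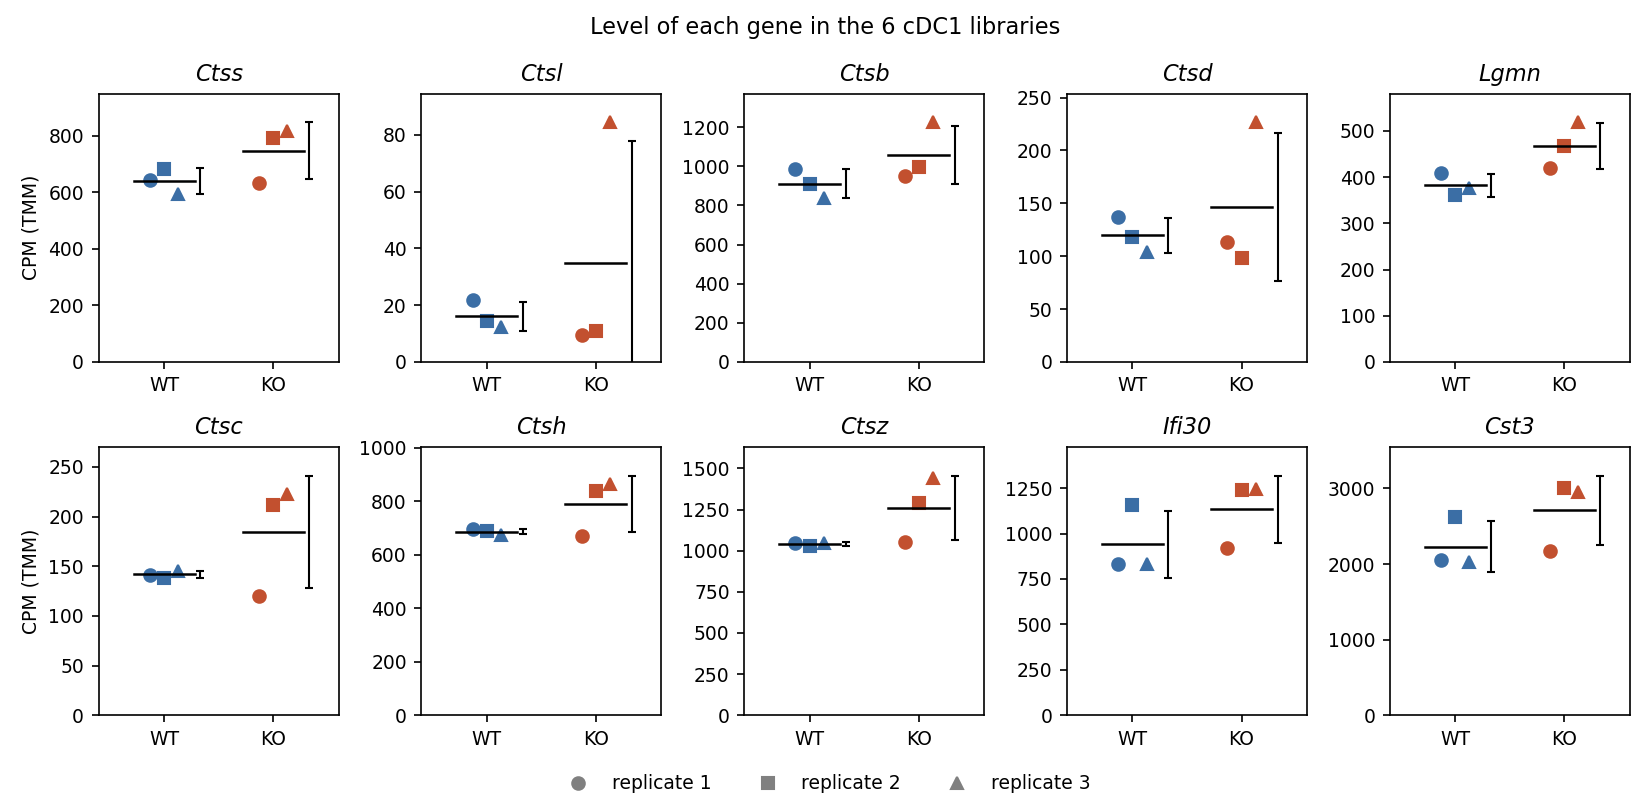
CPM of each gene in the 3 WT and 3 KO libraries, with a line at the group mean and a bar of ± 1 SD (cut at 0 for Ctsl in KO). KO replicate 3 holds the highest value of 9 of the 10 genes, and Ctsl and Ctsd exceed the WT range in that library alone.

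Ctss encodes cathepsin S, the main protease of the late invariant chain steps in dendritic cells. It lies on chromosome 3 from 95526786 to 95556403 (plus strand, mm10) and overlaps no other annotated exon. The WT libraries had 643, 682 and 593 CPM and the KO libraries 632, 791 and 817 CPM. KO replicate 1 lay inside the WT range and the other KO libraries above it. Ctss had a log2 fold change of 0.22 ± 0.13 (SE, n = 3 each), with an edgeR adjusted p of 0.853.

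Ctsl encodes cathepsin L, a broad cysteine endopeptidase that processes the invariant chain in thymic epithelium and is abundant in macrophages. It lies on chromosome 13 from 64359337 to 64370890 (minus strand). It was counted at 21.8, 14.4 and 12.1 CPM in WT and at 9.34, 10.98 and 84.4 CPM in KO. A single library, KO replicate 3, was several times above all others, while the other KO libraries were below the lowest WT value. Ctsl had a log2 fold change of 1.04 ± 1.02 (SE) and an edgeR adjusted p of 0.911. Without KO replicate 3 the value was -0.67 ± 0.32 (adjusted p 0.996), so that 1 library set the direction. With limma-voom it was 0.26 and with the replicate number as a block 0.66. Ctsl had the widest spread of the 10 genes, 3.16 on the log2 CPM scale from the lowest to the highest library. An annotated antisense gene, Gm47123, covers 26.9% of its exons and had a count of 0 in every library. A processed pseudogene on the same strand, Gm49230, covers 6.1%, so that counts of Ctsl are uncertain there.

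Ctsb encodes cathepsin B, which acts as an endopeptidase and as a carboxypeptidase. It lies on chromosome 14 from 63122462 to 63145923 (plus strand). Its level was 984, 912 and 838 CPM in WT and 949, 995 and 1225 CPM in KO. Only KO replicate 3 stood well apart, and the groups overlapped, with a log2 fold change of 0.21 ± 0.13 (SE) and an edgeR adjusted p of 0.853. Fdft1, on the opposite strand, overlaps 12.8% of its exons, and without a known strand setting reads of the overlap cannot be assigned with certainty.

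Ctsd encodes cathepsin D, the aspartic protease among the 10 genes, on chromosome 7 from 142375911 to 142388038 (minus strand). The WT values were 137, 118 and 104 CPM and the KO values 114, 98.7 and 227 CPM. As for Ctsl, KO replicate 3 alone was above WT, and KO replicate 2 was below it. Ctsd had a log2 fold change of 0.28 ± 0.31 (SE) and an edgeR adjusted p of 0.917. Its value was -0.18 ± 0.17 without KO replicate 3 and 0.18 with limma-voom. An overlapping gene model on the same strand, Gm49369, covers 34.4% of the exons of Ctsd, and no source used here says how reads there were counted.

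Lgmn encodes legumain, which cuts after asparagine and takes part in the maturation of other cathepsins. The gene lies on chromosome 12 from 102394084 to 102439813 (minus strand) and overlaps no other annotated exon. Its level was 409, 361 and 376 CPM in WT and 419, 467 and 519 CPM in KO, with group means of 382 ± 24.4 and 468 ± 50.0 CPM (SD, n = 3 each). The groups did not overlap, although KO replicate 1 was only just above the highest WT library. A log2 fold change of 0.29 ± 0.13 (SE) was fitted. Its unadjusted p of 0.040 in the edgeR test was the smallest of the 10 genes, and the adjusted p was 0.834.

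Ctsc encodes cathepsin C, a dipeptidyl peptidase that activates granule serine proteases. It lies on chromosome 7 from 88278085 to 88310888 (plus strand). The 3 WT libraries were close together, at 141, 139 and 146 CPM, and the KO libraries lay at 120, 211 and 223 CPM. KO replicate 1 was below all WT libraries and the others were well above them. Ctsc had a log2 fold change of 0.38 ± 0.20 (SE) and an edgeR adjusted p of 0.834. Without KO replicate 1 the value was 0.61 ± 0.11 (adjusted p 0.110), the smallest adjusted p that any of the 10 genes reached in any fit. Without KO replicate 2 it was 0.25 ± 0.23 and without KO replicate 3 it was 0.22 ± 0.21, so the size for Ctsc depended on single KO libraries.

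Ctsh encodes cathepsin H, an aminopeptidase, on chromosome 9 from 90054152 to 90076089 (plus strand). It was counted at 696, 689 and 676 CPM in WT and at 669, 839 and 864 CPM in KO. The pattern was that of Ctsc, with KO replicate 1 below the WT range. Ctsh had a log2 fold change of 0.20 ± 0.13 (SE), with an edgeR adjusted p of 0.853.

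Ctsz encodes cathepsin Z, a carboxypeptidase, on chromosome 2 from 174427493 to 174439039 (minus strand). Its level was 1049, 1028 and 1048 CPM in WT and 1054, 1287 and 1443 CPM in KO. The groups did not overlap, but KO replicate 1 barely exceeded the highest WT library. Ctsz had a log2 fold change of 0.28 ± 0.13 (SE), an edgeR unadjusted p of 0.064 and an adjusted p of 0.834. The coefficient of variation of Ctsz was 1.13% in WT and 15.5% in KO. For Ctsh it was 1.501% and 13.4%, and for Ctsc 2.54% and 30.6%. The coefficient of variation was larger in KO than in WT for 9 of the 10 genes, the exception being Ifi30 (19.8% in WT and 16.3% in KO). No test of that difference was run, and the share over all genes was not counted, so it may not be particular to these genes.

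Ifi30 encodes the interferon-induced lysosomal thiol reductase GILT, which opens disulfide bonds of antigen. It lies on chromosome 8 from 70762774 to 70766663 (minus strand), and 8.7% of its exons overlap the gene model 6330537M06Rik on the opposite strand, where reads cannot be assigned with certainty. It was counted at 832, 1156 and 835 CPM in WT and at 922, 1238 and 1246 CPM in KO. WT replicate 2 was above KO replicate 1, so the groups overlapped, and Ifi30 had a log2 fold change of 0.27 ± 0.17 (SE) and an edgeR adjusted p of 0.853.

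Cst3 lies on chromosome 2 from 148871722 to 148875692 (minus strand) and overlaps no other annotated exon. The inhibitor was counted at 2056, 2618 and 2022 CPM in WT and at 2177, 3001 and 2952 CPM in KO. Replicate 2 was high in both groups for Cst3 and Ifi30. Cst3 had a log2 fold change of 0.28 ± 0.16 (SE) and an edgeR adjusted p of 0.836. The sum of the 8 protease genes divided by Cst3, both in CPM, was 1.98, 1.51 and 1.88 in WT and 1.82, 1.57 and 1.83 in KO. All KO values of this ratio lay inside the WT range.

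Libraries KO replicate 1 and KO replicate 3 stood apart in opposite ways across the 10 genes. KO replicate 3 was the highest library for 9 of them, the exception being Cst3, which was highest in KO replicate 2. KO replicate 1 lay within or below the WT range for 8 of them, all but Lgmn and Ctsz. The 10 genes took 0.711%, 0.763% and 0.681% of all counts in WT and 0.717%, 0.878% and 0.926% in KO. Without KO replicate 1 the groups did not overlap for 8 genes, all but Ctsl and Ctsd, against a background of 16% of genes. In that fit 7 genes had an unadjusted p under 0.05 in the higher direction (background 6.49%), none passed the adjusted threshold in edgeR (background 0.0531%), and the median log2 fold change was 0.40. Without WT replicates 1, 2 and 3 and KO replicates 2 and 3, each in turn, 0, 2, 0, 0 and 0 genes had an unadjusted p under 0.05 (backgrounds 2.11%, 2.93%, 2.05%, 1.18% and 1.26%). In the same order the groups did not overlap for 3, 4, 2, 2 and 2 genes (backgrounds 9.3%, 11.8%, 9.93%, 8.59% and 9.19%). Without KO replicate 3 the median was 0.16 and 8 of the 10 genes were above 0 (background 49.6%), Ctsl and Ctsd being below it.

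**Figure D2:**
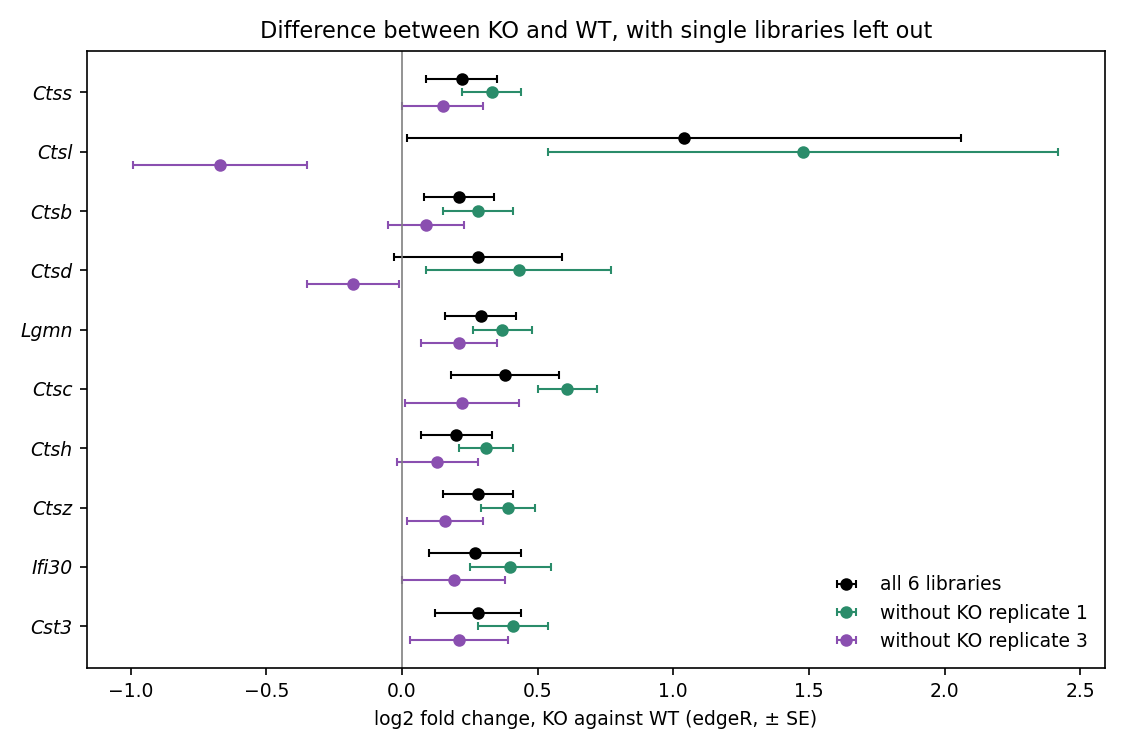
Log2 fold change of each gene, KO over WT, from the edgeR fit with bars of ± 1 SE, for all 6 libraries and without KO replicate 1 or KO replicate 3. Ctsl and Ctsd change sign without KO replicate 3, and the other 8 genes stay above 0 in all 3 fits.

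The macrophage and monocyte markers that were highest in KO replicate 3 numbered 8 of 14, and 3 were highest in WT replicate 1. Lyz2 (lysozyme) was at 468 CPM in KO replicate 3, out of 851 CPM for the whole list there, and between 106 and 192 CPM elsewhere. C1qb was at 46.9 CPM there and at 29.1 CPM in WT replicate 1, with 3.62 to 10.2 CPM in the remaining libraries. Fcgr1 was at 0 in KO replicate 1 and Mertk at 0 in KO replicate 2, and the other 12 markers were detected in all 6 libraries. Ctsl followed the order of the summed list at the top, since WT replicate 1 was its second highest library, as it was for Ctsd. The part of these cells in the Ctsl and Ctsd values was not tested. Ctsl made up 0.535%, 0.365% and 0.320% of the protease CPM in WT and 0.236%, 0.234% and 1.56% in KO.

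The 9 markers of mature dendritic cells, such as Ccr7 and Fscn1, summed to 18330, 17106 and 17863 CPM in WT and to 18003, 20709 and 23750 CPM in KO. KO replicates 2 and 3 had the highest sums of this list too. All of these markers but Cd40 had a log2 fold change above 0. Cd80 (0.63) and Socs2 (0.30) were higher in KO at an unadjusted p under 0.05 in edgeR, as were 2.71% of all genes. Each had an adjusted p of 0.834. For Socs2 the groups did not overlap, which held for 5.46% of all genes. Not every marker followed the sum, as Cd40 and Cacnb3 were below the WT range in KO replicate 2 and above it in KO replicate 3. The part of these markers in the values of the 10 genes was not tested. In bulk RNA a change in the share of a cell type and a change of RNA per cell cannot be told apart. The mitochondrial share of counts was 1.82% to 2.43% in WT and 1.81% to 2.52% in KO. Sums for cDC2 markers were 100 to 163 CPM in WT and 126 to 227 CPM in KO, and Irf4 made up most of them (78.8 to 181 CPM). B-cell markers summed to 165 to 291 CPM and 113 to 401 CPM, with the highest value in KO replicate 1. Plasmacytoid dendritic cell, T-cell and NK-cell lists stayed at 280, 43.6 and 3.88 CPM or less. Spib made up most of the plasmacytoid sums (186 to 247 CPM). Siglech of that list was at 3.85, 5.34 and 12.6 CPM in WT and at 3.33, 0 and 1.41 CPM in KO. Its log2 fold change was -2.32, with an edgeR adjusted p of 0.834. Groups without overlap in that direction were seen for 5.19% of all genes. Ly6d, Ccr9 and Klk1 were also below 0, but Tcf4 and Spib were above it. Neutrophil markers reached at most 8.20 CPM, with Elane and Mpo at 0 throughout.

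**Figure D3:**
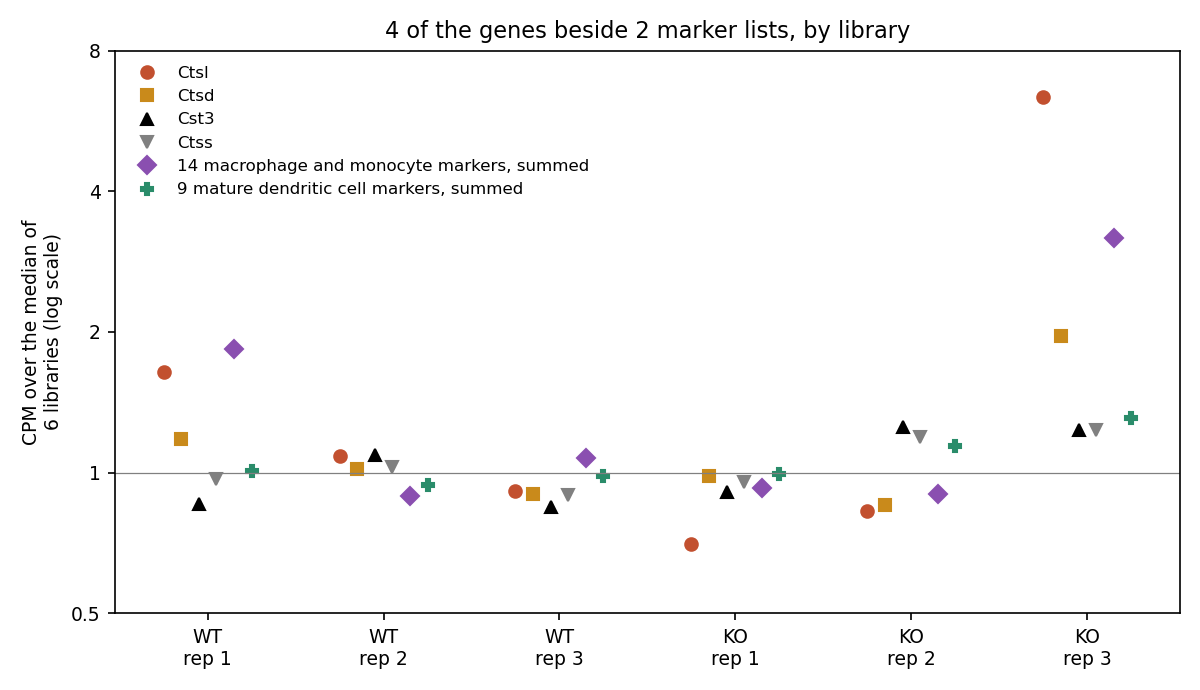
CPM of Ctsl, Ctsd, Cst3 and Ctss and summed CPM of 2 marker lists in each library, divided by the median of the 6 libraries (log scale). Ctsl, Ctsd and the macrophage and monocyte sum are highest in KO replicate 3 and second highest in WT replicate 1, whereas Cst3 and Ctss are high in KO replicates 2 and 3.

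Levels of different genes were compared as CPM per kb of the union of annotated exons, averaged over all 6 libraries (± SD, n = 6). Cst3 was the highest at 1952 ± 352 CPM per kb, followed by Ifi30 at 1058 ± 201. Among the proteases Ctsz led with 799 ± 120 and Ctss followed with 510 ± 66.9 CPM per kb. Lgmn (183 ± 25.3), Ctsh (164 ± 19.6) and Ctsb (163 ± 21.7) formed a middle group. Ctsd stood at 56.6 ± 20.3, Ctsc at 28.1 ± 7.39 and Ctsl at 3.93 ± 4.50 CPM per kb. The inhibitor and the reductase thus ranked above all 8 proteases, and an exopeptidase ranked above cathepsin S.

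Neighbours in this order did not all differ beyond their spread. Ifi30 and Ctsz overlapped in range, but Ifi30 was higher within 6 of 6 libraries, and the same held for Lgmn over Ctsh. Ctsh and Ctsb could not be ordered, since each was higher in 3 libraries. The other 6 neighbouring pairs did not overlap. The middle of the order depended on the length taken for a gene. With the longest transcript Ctsh was at 269 CPM per kb, ahead of Lgmn at 214 and Ctsb at 207. With the principal transcript of the APPRIS annotation Ctsh was at 457, and Ctsc at 65.5 was not separable from Ctsd at 62.5. Ctsl moved from 3.93 to 12.9 CPM per kb with the shortest principal transcript and kept the last place. The first 4 places and the last place were the same with all 4 lengths used.

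**Figure D4:**
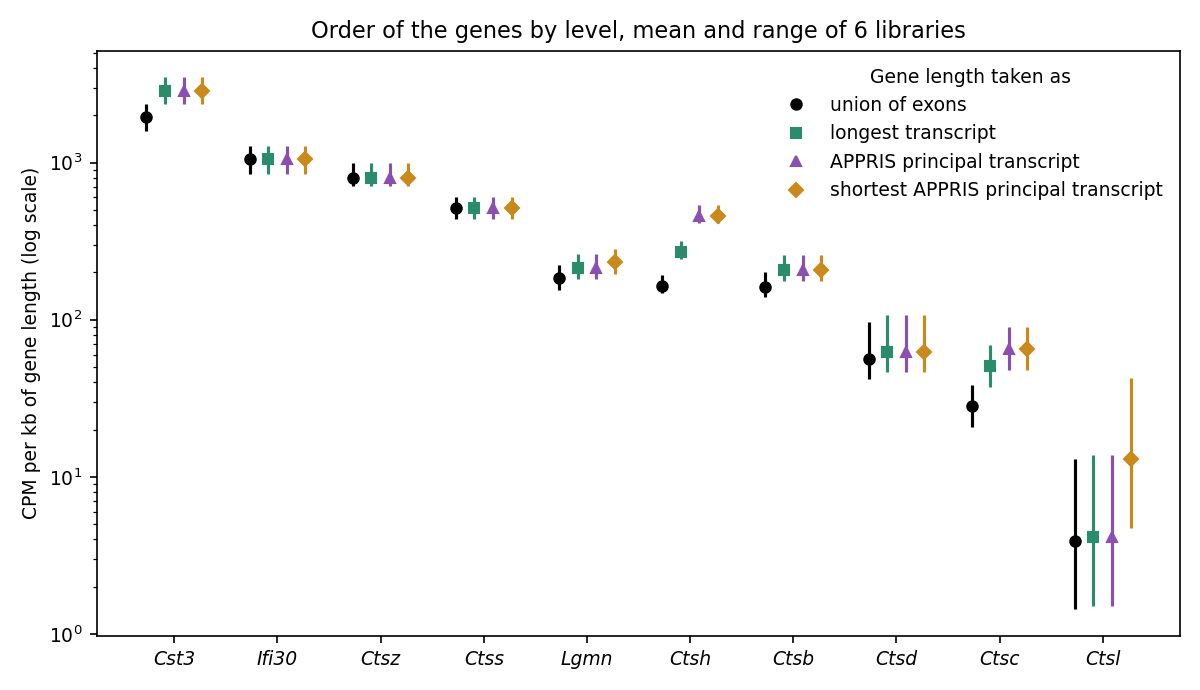
Mean CPM per kb (log scale) of each gene over 6 libraries, with lines from the lowest to the highest library, for 4 definitions of gene length. Cst3, Ifi30, Ctsz and Ctss lead and Ctsl is last with each length, while Ctsh and Lgmn, and Ctsc and Ctsd, change places around Ctsb.

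Other genes of the pathway were spread over both directions. Of 73 genes in 7 lists, 53 were tested, 23 with a fold change above 0 and 30 below it, with a median log2 fold change of -0.02. None passed the adjusted threshold in edgeR, and 1 in each direction had an unadjusted p under 0.05. Of 16 other cathepsin genes only 4 passed the filter on low counts and 9 were at 0 in all libraries. Ctso was at 46.0, 45.7 and 40.0 CPM in WT and at 37.7, 37.9 and 40.3 CPM in KO, with a log2 fold change of -0.18 ± 0.15 (SE) and an edgeR adjusted p of 0.885. Ctse, an aspartic protease, was near the filter, with means of 0.651 ± 0.128 CPM (WT) and 0.922 ± 0.387 CPM (KO; SD, n = 3 each).

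Among 13 other protease inhibitors 6 were tested, 4 above 0 and 2 below, with a median of 0.22. Serpinb6a, an intracellular serpin, was the one gene of the 53 with a higher level in KO at an unadjusted p under 0.05. It was counted at 64.6, 38.4 and 65.2 CPM in WT and at 61.3, 100.2 and 88.5 CPM in KO, with a log2 fold change of 0.57 ± 0.23 (SE) and an edgeR adjusted p of 0.834. Cstb, the cytosolic inhibitor stefin B, had 71.7, 99.7 and 62.0 CPM in WT and 97.6, 101.6 and 94.1 CPM in KO. Both overlapped between the groups.

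All 12 genes of lysosomal hydrolase sorting were tested, which include the mannose 6-phosphate receptors that carry newly made cathepsins from the Golgi. Of these 4 were above 0 and 8 below, with a median of -0.05. Igf2r, the larger of those receptors, was at 26.5, 32.9 and 44.2 CPM in WT and at 32.7, 22.4 and 17.5 CPM in KO. The fold change of Igf2r was -0.51 ± 0.25 on the log2 scale (SE), with an edgeR adjusted p of 0.834. Sort1 (sortilin), a further sorting receptor, was at 90.1, 97.4 and 96.6 CPM in WT and at 93.1, 59.4 and 74.6 CPM in KO. In both genes KO replicate 1 was within the WT range and the other KO libraries were below it. For Ctss KO replicate 1 was also within the WT range, but the other KO libraries were above it.

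TFEB and its relatives are transcription factors of lysosomal genes. Of 4 such genes 3 were tested, 2 above 0 and 1 below, with a median of 0.19. Tfeb had 37.8 ± 5.23 CPM (WT) and 43.1 ± 4.17 CPM (KO), and Mitf 2.16 ± 0.851 and 2.98 ± 1.45 CPM (SD, n = 3 each), with edgeR adjusted p of 0.890 and 0.932. The 9 genes of MHC class II and its peptide loading, whose invariant chain is the classic substrate of cathepsin S, had 2 above 0 and 7 below, with a median of -0.19. H2-Ob, a subunit of the modulator of class II peptide loading, was at 21.0, 29.7 and 11.9 CPM in WT and at 7.89, 14.7 and 10.7 CPM in KO. H2-Ob had a log2 fold change of -0.87 ± 0.35 (SE), an unadjusted p of 0.031 and an edgeR adjusted p of 0.834. H2-DMb1, of the peptide loading complex, had 47.1 ± 10.7 CPM (WT) and 40.1 ± 6.29 CPM (KO; SD, n = 3 each).

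The 8 genes of the phagosomal NADPH oxidase and its regulators were split evenly, 4 above and 4 below 0. This oxidase is known to keep phagosomes less acidic, which limits proteolysis. Its paired membrane subunits pointed in opposite directions, Cyba at 357 ± 58.7 CPM (WT) and 445 ± 53.0 CPM (KO), and Cybb at 22.4 ± 3.71 and 15.3 ± 9.65 CPM (SD, n = 3 each). Their log2 fold changes were 0.32 ± 0.15 and -0.62 ± 0.37 (SE), with edgeR adjusted p of 0.834 and 0.853. The KO libraries differed for Cybb, at 11.7, 8.06 and 26.3 CPM, and KO replicate 3 was above the highest WT library (24.7 CPM). Of 11 other peptidases 6 were above 0 and 5 below, with Tpp1 at 0.26 ± 0.14 and Scpep1 at 0.16 ± 0.13 (SE) nearest to a call.

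**Figure D5:**
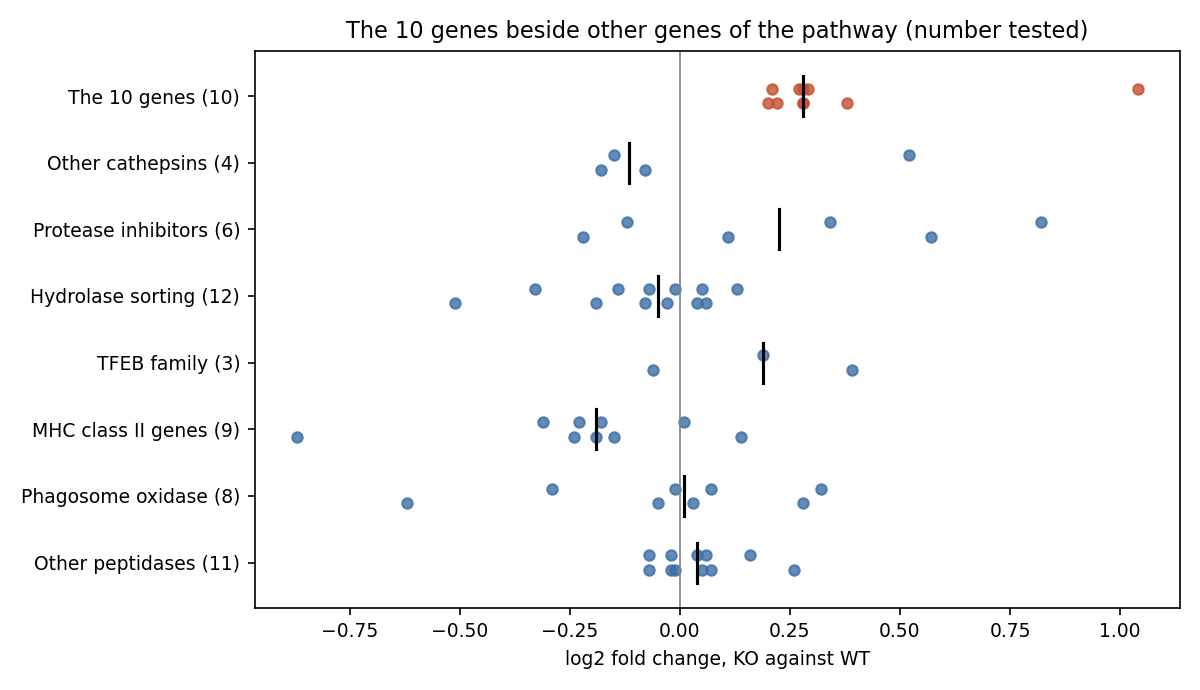
Log2 fold change, KO over WT, of the 10 genes and of the tested genes in 7 other lists of the pathway, with the median of each list as a black line. All 10 genes lie above 0, while the medians of the other lists run from -0.19 to 0.22.

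Genes with the profile most like Ctsl and Lgmn over the 6 libraries were sought among 9210 protein-coding genes that averaged at least 5 CPM, by the root mean square distance of centred log2 CPM. For Ctsl these were Ifitm3 (distance 0.36), Cd72 (0.41) and Tbc1d24 (0.44), against a median distance of 1.08. Ifitm3, an interferon-induced membrane protein, was at 23.7, 18.8 and 8.84 CPM in WT and at 6.95, 15.3 and 82.1 CPM in KO. Its peak in KO replicate 3 follows from its choice by likeness to Ctsl and is no separate result. For Lgmn they were Cpne2, Actb and Maea, all at 0.05 against a median of 0.27. Actb, the cytoskeletal actin often used as a reference gene, was at 3973, 3634 and 3657 CPM in WT and at 3773, 4400 and 5146 CPM in KO.

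Promoter windows were examined because TFEB and its relatives bind E-box motifs upstream of lysosomal genes. The RefSeq windows of GRCm38.p6 run from 250 bases before to 50 after a start site, and 8 of the 10 genes had one, Ctsb and Ctsh not. The E-box core CACGTG, which reads the same on both strands, occurred in 4 of these 8 genes (Ctsd, Ctsl, Ifi30 and Lgmn) and in 7.15% of all 32851 windows. Here and for the other motifs, a gene counted if any of its windows matched, so counts of genes and shares of windows are unlike units. The stretches around the E-box core are shown 5′ to 3′ on the gene's strand, which is minus for all 4 genes, with the core in capitals. They lie at chr7:142388059-142388077 and chr7:142387912-142387933 for Ctsd, chr8:70766846-70766867 for Ifi30, chr13:64370743-64370764 for Ctsl and chr12:102439093-102439342 for Lgmn. Lgmn has a window at each of its annotated starts, and the core is in that of the downstream start, inside the gene. The sites 98, 196 and 236 bases before a start lie within an annotated GENCODE M21 exon. For Lgmn the whole stretch before the start is given, since it had the smallest p of the 10 genes.
Ctsd, 245 bases before the start: tccccCACGTGacctgtat
Ctsd, 98 bases before the start: ccgcgtctCACGTGacccgttg
Ifi30, 196 bases before the start: aaaaacttCACGTGaccagaca
Ctsl, 236 bases before the start: ttagaagcCACGTGctgatcta
Lgmn, 49 bases before the start: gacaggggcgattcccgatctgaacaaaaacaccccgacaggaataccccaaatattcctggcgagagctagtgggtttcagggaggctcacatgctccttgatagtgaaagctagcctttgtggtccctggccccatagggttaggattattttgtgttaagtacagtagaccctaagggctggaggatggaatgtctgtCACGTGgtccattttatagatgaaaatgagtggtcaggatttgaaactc

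The longer form TCACGTGA was in Ctsd and Ifi30, at the site 98 bases before the start of Ctsd, and in 0.974% of all windows. In all, 11 motifs were searched on both strands, and they were chosen with the sequences in view, so the matches are a description. The E-box forms overlap each other. CACGTGAC was in Ctsd, Ifi30 and Lgmn (2.25% of windows) and the same with GT added in front in none of the 8 (0.326%). An interferon-response type motif, GAAA, any 2 bases and GAAA again, was in Ctss (3.44%), 21 bases before its start, and a PU.1 and IRF type, GGAA, any 2 bases and GAAA, in none (2.72%). TTCNNNGAA (8.3%) and its stricter form TTCCNNGAA (4.81%) were in Ctsc. GAGGAAGT was in Ctsc and Ctss (3.2%), GGAAGTG in Ctss (11%) and CCAAT in Ctsz and Lgmn (37.4%). The genes with an E-box core had log2 fold changes of 0.27 to 0.29 and, for Ctsl, 1.04, and those of the 4 genes with a window but no core were 0.22 (Ctss), 0.28 (Ctsz and Cst3) and 0.38 (Ctsc). No factor binding was measured in these samples.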

How the data were processed

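The authors deposited raw read counts per Ensembl gene for 6 libraries, not normalized. HISAT2 2.0.5, HTSeq and mm10 are named per the submitters' processing notes. No source used here gives the HTSeq version, annotation release or strand setting. Gene names and lengths came from GENCODE M21.

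Genes passing filterByExpr were scaled by TMM and tested in edgeR 4.0.16 (R 4.3.3; robust glmQLFit with legacy=FALSE, glmQLFTest), KO against WT, with Benjamini-Hochberg adjustment over all 12568 genes and a threshold of 0.05. The script was tested on simulated data. An SE is the log2 fold change over the root of F. CPM uses TMM-scaled totals, and log2 CPM a prior count of 2. A symbol on several features took the feature with the highest total.

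The 10 genes, the lists and the choice of legacy=FALSE were made with earlier results of these data known. Named were all 10, the 2 genes of each list with the smallest p, and the 3 nearest profiles for 2 genes; Ctsl and Lgmn were taken for the widest range and the smallest p. Single marker genes were picked with their values known. Tried as alternatives were RLE scaling, no filter, 1 CPM in 3 libraries, DESeq2 1.42.0, limma-voom (limma 3.58.1), a replicate block, length and GC offsets, leaving out haemoglobin, T-cell receptor and immunoglobulin genes, each library left out, and the longest transcript. Added after seeing the data were legacy=TRUE, APPRIS lengths and group overlap with libraries left out. Ifi30 has no APPRIS mark, so its longest transcript was used.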

Additional observations from a re-analysis of the deposited data

How the results depend on the processing

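No one of the 10 genes was called under any of 15 alternative fits. Their log2 fold changes kept their direction in 148 of 150 values, and the exceptions were Ctsl at -0.67 and Ctsd at -0.18 without KO replicate 3, where fewer samples were fitted. With 1 library left out they ran from these values to 1.49 for Ctsl and 0.49 for Ctsd, both without KO replicate 2. Genes called over the whole table numbered 0, against 3 with no filter, 10 with DESeq2 and 0 to 7 with 1 library left out (7 without KO replicate 1). At an unadjusted p under 0.05 the 725 genes became 376 to 1621 with 1 library left out, the lowest without KO replicate 2 and the highest without KO replicate 1, 444 without KO replicate 3 and 629 with edgeR's legacy method. The 2 pathway genes at that level became 4 with no filter, 4 with the replicate block and 1 to 6 with 1 library left out. The cause of these shifts was not tested. Deviations of same-numbered libraries correlated at 0.005, 0.028 and -0.001 over genes, and those of differently numbered libraries at -0.061 to 0.044. No pairing by number was thus seen over all genes, but these correlations cannot exclude one. With the replicate block 942 genes and 4 of the 10 genes had an unadjusted p under 0.05, and the smallest adjusted p of the 10 was 0.659. Offsets for length and GC moved the share of all genes above 0 from 50.6% to 57.3% and the median of the 10 genes from 0.28 to 0.26. With 129 to 957 counts of Ctsl per library, its SE of 1.02 became 0.32 without KO replicate 3, and 3 libraries a group limit all tests.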
